A study of Arabidopsis thaliana with 36 samples.

Results

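Seedlings of the Arabidopsis thaliana cdk8 mutant were compared with the Col-0 wild type (WT) right after a second heat stress (HS), across all genes. The members were the 3 cdk8 and the 3 WT libraries with the treatment label P+T, 6 of the 36 libraries of the series, and 20847 of 36632 annotated genes passed the filter on low counts. cdk8 is a line with a T-DNA insertion in CDK8 in the Col-0 background, so the mutant is represented by a single allele. At P+T, seedlings had received a priming HS on day 5 and a triggering HS on day 7, each of 1 h at 37 °C, and whole seedlings were harvested on day 7 directly after the second HS. The other treatments were the triggering HS alone (T), the priming HS alone (P) and no HS (NHS), all harvested on the same day, with 3 libraries for each genotype. They were used here to ask whether a difference at P+T was also present at a first HS, after priming or without heat. An hsfa2 mutant completed the series and entered the model fit, but is not described.

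CDK8 is the kinase of the Mediator kinase module, a part of Mediator that can detach from the core complex and that also holds MED12, MED13 and a C-type cyclin. Mediator passes signals from DNA-bound transcription factors to RNA polymerase II, and the kinase module can raise or reduce transcription, depending on the gene. In heat, heat shock factors (HSFs) bind heat shock elements in promoters and switch on genes for chaperones and protective metabolites. Some heat genes respond more strongly to a second HS than to a first, which is called transcriptional memory.

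The 6 libraries held 29956826 to 30680023 counted read pairs. Levels are counts scaled to a common library size (CPM) and then by the TMM factors, which set the bulk of genes equal between libraries, so that the levels of a library do not sum to a fixed total. They are not corrected for gene length, so that a rank of genes by CPM also reflects their length. A gene was called where its adjusted p was under 0.05 and its log2 fold change (cdk8 over WT) was above 1 or below -1. CDK8 itself (AT5G63610, chromosome 5, 25463362 to 25465922, minus strand, TAIR10.1) had 5.14, 4.48 and 4.91 CPM in cdk8, against 30.2, 23.1 and 28.3 CPM in WT, with a log2 fold change of -2.49 (SE 0.118, adjusted p = 8.1e-16). The mutant libraries thus matched their label, with some CDK8 reads left. Of the 4 other kinase module genes none was called, and GCT, which encodes MED13, had a log2 fold change of 0.56 (adjusted p = 0.017). None of 29 core and tail Mediator genes was called, and their log2 fold changes lay between -0.20 and 0.48. Transcripts of seed storage proteins and oleosins set cdk8 replicates 2 and 3 apart from the other P+T libraries. The summed level of 13 such markers was 146, 2310 and 7520 CPM in cdk8, against 15.7, 113 and 70.1 CPM in WT. Marker genes of roots were level, with a sum of 87.8 to 118 CPM in cdk8 and 87.4 to 106 CPM in WT, and none of 12 was called.

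At the second HS, 1250 genes were lower in cdk8 (6.0% of genes tested) and 314 were higher (1.51%). The median log2 fold change of all genes tested was 0.025. At an adjusted p under 0.05 with no limit on the fold, 2484 genes (11.9%) were lower and 1354 (6.49%) higher. With library size as the only scaling, 1007 genes were lower and 529 higher, and the share of lower among called genes was 65.6% in place of 79.9%. Without cdk8 replicates 2 and 3, which leaves 1 cdk8 library and assumes that it varies as the other groups do, 845 genes were lower, 788 of them also called with all libraries. Only 102 of the 314 higher genes were then still called, among 151 in all.

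Genes with the steepest loss in cdk8 were nearly silent in the mutant. FTSH6 (AT5G15250, chromosome 5, 4950359 to 4952803), which encodes a membrane-bound protease of plastids, had 1.44, 1.03 and 0.77 CPM in cdk8, against 98.4, 88.1 and 95.6 CPM in WT. Its log2 fold change was -6.43 (SE 0.254, adjusted p = 1.5e-17), and the groups were far apart in every library. The uncharacterized AT4G19430 had 0.0378, 0.0397 and 0 CPM in cdk8, against 15.6, 9.66 and 9.77 CPM in WT. Because so few reads remained in cdk8, its loss is better given as a ratio, and WT exceeded cdk8 449 times (95% exact interval of the counts 124 to 3710). The same holds for AT1G30190, annotated as a cotton fiber protein, with a WT to cdk8 ratio of 212 (72.1 to 1030), and for the cell wall invertase gene CWINV5, with a ratio of 123 (52.6 to 382). BAP1, whose product binds the copine BON1, gave 97.2 (26.5 to 809), MYB62, a transcription factor gene, gave 28.9 (13.7 to 72.9), and the kinase gene AT1G64340 gave 31.7 (14.2 to 87.5). These intervals cover counting error only. Next in size were ERF53 (-5.51), AT1G21945 (-5.24), bZIP7 (-4.99), RTFL12 (-4.77) and AT5G05220 (-4.71), which include 2 further transcription factor genes and a gene for a small peptide of the ROTUNDIFOLIA family. AT5G05220, uncharacterized, had 2.34, 2.86 and 1.91 CPM in cdk8, against 48.9, 63.5 and 74.5 CPM in WT. All of these were also lower at T, apart from AT1G64340, which had a log2 fold change of -4.0 there (adjusted p = 0.15).

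Large differences were also seen among well expressed genes, of which 4 were picked after their values were seen. EXO, a promoter of cell expansion, had 15.5, 10.5 and 12.3 CPM in cdk8, against 185, 205 and 207 CPM in WT (log2 fold change -3.96, SE 0.252, adjusted p = 4.1e-13). AT1G21550, a calcium-binding EF-hand protein gene, averaged 36.8 ± 5.27 CPM in cdk8 and 531 ± 98.2 CPM in WT (SD, n = 3 each). CYP707A4, which encodes an enzyme that breaks down abscisic acid (ABA), averaged 3.32 ± 0.787 CPM in cdk8 and 40.2 ± 6.03 CPM in WT. The NAC transcription factor gene ATAF1 averaged 387 ± 74.6 CPM in cdk8 and 1290 ± 57.7 CPM in WT. Among the called genes with the highest CPM was UBQ10, a polyubiquitin gene often used as a reference in expression studies. UBQ10 had 2960, 2840 and 2900 CPM in cdk8, against 6030, 5920 and 6740 CPM in WT, and its log2 fold change was -1.10 (SE 0.120, adjusted p = 2.4e-08). Scaled by library size alone, the value for UBQ10 was -0.93 and no longer passed the fold threshold. At T, UBQ10 was likewise lower, with 3210, 4280 and 4010 CPM in cdk8, against 7900, 8000 and 8440 CPM in WT. At P and NHS, UBQ10 differed by -0.15 and -0.11.

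**Figure D1:**
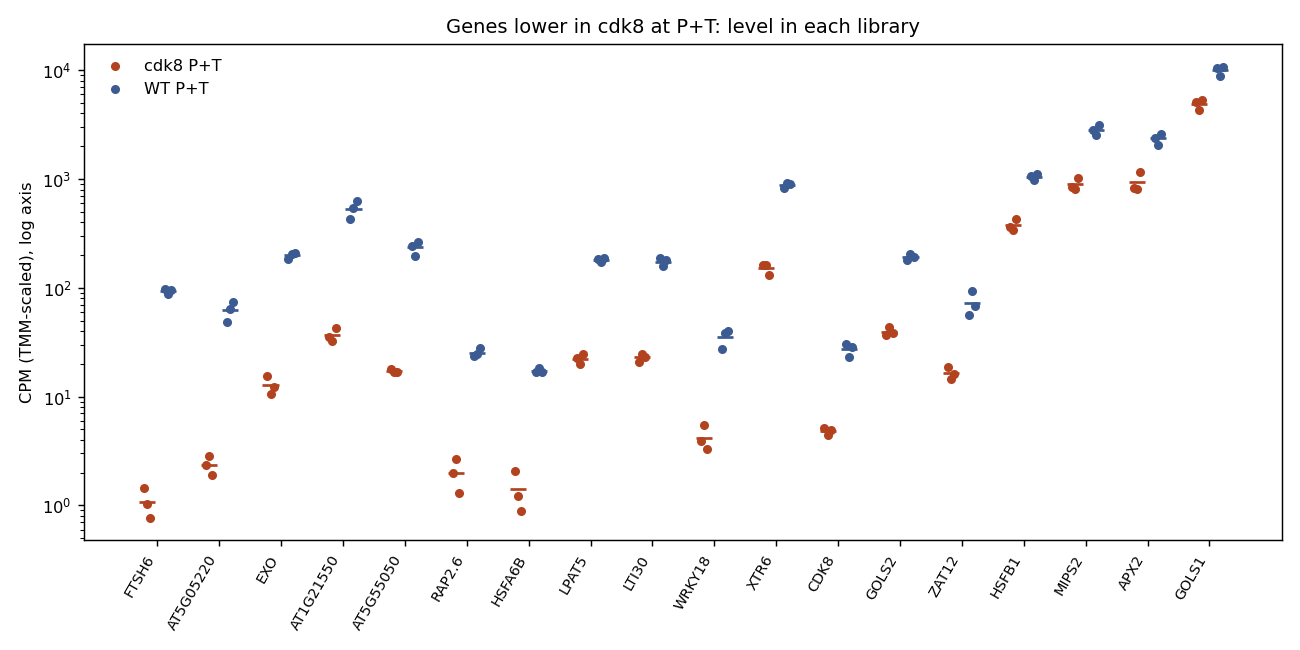
TMM-scaled CPM on a log axis of 18 genes called lower in cdk8 at P+T, with cdk8 in red to the left and WT in blue. Points are libraries in the order of their replicate number and bars are means of 3. In cdk8 the levels run from FTSH6 near 1 CPM to GOLS1 at 4290 to 5320 CPM.

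Of 19 HSF genes that passed the filter 7 were lower and none was higher, while 6.0% of all genes tested were lower. The median log2 fold change was -0.63 for the list, against 0.025 for all genes. HSFA6B had 2.08, 1.23 and 0.892 CPM in cdk8, against 16.8, 18.2 and 16.7 CPM in WT (log2 fold change -3.61, SE 0.352, adjusted p = 2.8e-09). HSFA3, which works downstream of DREB2A, had 22.4, 17.1 and 17.8 CPM in cdk8, against 70.4, 60.5 and 68.0 CPM in WT (-1.79). HSFA7B (-1.63), HSFB2A (-1.54), HSFA1E (-1.53), HSFB1 (-1.47) and HSFA7A (-1.10) made up the rest. HSFA7A fell inside the fold threshold with library size alone (-0.92) and without cdk8 replicates 2 and 3 (-0.94). HSFA7B was not called with DESeq2 (adjusted p = 0.16) or without those libraries (-1.73). With only the groups compared HSFA7B was called (adjusted p = 2.6e-06). HSFA1E belongs to the HSFA1 master activators of the heat response, and the B-class members HSFB1 and HSFB2A are known as repressors. In WT, HSFA1E had 3.18, 3.46 and 3.16 CPM at NHS, against 104, 108 and 111 CPM at P+T. HSFA2, the factor that sustains heat stress memory, had 1030, 1260 and 1360 CPM in cdk8, against 3310, 3930 and 4060 CPM in WT. Its log2 fold change of -1.63 missed the threshold over all groups (adjusted p = 0.075). That fit takes the spread of a gene from all groups, and HSFA2 was uneven in cdk8 at P (15.7, 0.222 and 0.519 CPM). The part of such groups in the adjusted p was not tested. With replicate number as a block the adjusted p for HSFA2 was 0.045, and with only the groups compared it was 1.2e-05. Of other transcription regulators of the heat response, 2 of 9 were lower, DREB2C (-2.21) and DREB2A (-1.06), with 242, 247 and 244 CPM of DREB2A in cdk8, against 492, 479 and 556 CPM in WT. DREB2A was inside the fold threshold with library size alone (-0.88) or without WT replicate 3 (-0.99).

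A heat shock element with 3 alternating units in the form GAANNTTCNNGAA, sought on both strands in the 300 bases before the annotated start, was found in 20 of 1250 lower genes (1.60%), in 1 of 314 higher genes (0.318%) and in 108 of 20846 genes tested (0.518%). The 6 matched lower genes with the highest level are shown, each read 5′ to 3′ on the strand of its gene in TAIR10.1, with the matched element in capitals. They include 3 of the transcription factors above, galactinol synthase GOLS1, the J-domain chaperone gene AT1G71000 and the mitochondrial protease gene ftsh4.
GOLS1, chr2:19370557-19370586, minus: gtcccactTTCCAGAACTTTCacggtttca
AT1G71000, chr1:26770282-26770311, minus: atgttcccGAACGTTCTTGAAtcttgagac
DREB2A, chr5:1602033-1602062, plus: cagcgtgtTTCGAGAAGATTCgggaggaca
HSFA7A, chr3:19264991-19265020, plus: aaaaccgtTTCCAGAAGTTTCtaatttcta
HSFA7B, chr3:23399071-23399100, plus: agtataagTTCCGGAACTTTCtaagaagat
ftsh4, chr2:11135527-11135556, minus: agacaatgTTCCAGAAACTTCgttactaat
The elements began 83 (ftsh4) to 164 (DREB2A) bases before the start. AT1G71000 had 112, 128 and 114 CPM in cdk8, against 962, 1090 and 982 CPM in WT (log2 fold change -3.10, adjusted p = 0.00025), and ftsh4 had 137, 139 and 147 CPM in cdk8, against 409, 345 and 408 CPM in WT (-1.46). Most lower genes held no such element, and a match of letters shows neither binding nor use.

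Among the chaperone lists only that of small heat shock proteins held called genes, while 6.0% of all genes tested were lower. Of 17 genes for small heat shock proteins 2 were lower, AT1G52560 with 997, 978 and 1070 CPM in cdk8 and 2100, 2310 and 2460 CPM in WT (-1.17, adjusted p = 0.023), and AT4G21870 (-1.17). AT1G52560 was not called with DESeq2 (adjusted p = 0.12), with library size alone or without cdk8 replicates 2 and 3 (adjusted p = 0.24), nor without any single one of the P+T libraries other than WT replicate 1 (adjusted p = 0.051 to 0.072), and AT4G21870 was not called with library size alone. The list had a median of -0.59, and 15 of 17 log2 fold changes were negative. HSP22 had 2300, 2430 and 2800 CPM in cdk8, against 4170, 4820 and 5520 CPM in WT, a log2 fold change of -0.95 with an adjusted p of 0.24. HSP21 (-0.82, adjusted p = 0.20) and HSP18.2 (-0.73, adjusted p = 0.21) were not called either. A fit of only the groups compared takes the spread from the P+T libraries alone. In it the adjusted p was 0.00055 for HSP22, 0.00049 for HSP21 and 0.0031 for HSP18.2. Their folds were still inside the threshold. AT1G52560 kept its call in that fit (-1.18, adjusted p = 2.4e-05). None of 16 HSP70 genes was called. HSP70 (AT3G12580) had 17500, 18900 and 19400 CPM in cdk8, against 21500, 22500 and 24600 CPM in WT (-0.30, adjusted p = 0.71). With only the groups compared its adjusted p was 0.091. None of 11 genes of the HSP90 and HSP101 list and none of 14 co-chaperones was called, and HSP101 had 13600, 15300 and 16100 CPM in cdk8, against 14900, 15600 and 16100 CPM in WT.

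Of 16 genes that the study names 7 were lower, among them type II memory genes, which respond more strongly to a recurrent HS. They were chosen because the study names them, so their direction is no independent evidence. APX2 (AT3G09640, chromosome 3, 2956156 to 2958330), a cytosolic ascorbate peroxidase gene, had 818, 814 and 1160 CPM in cdk8, against 2400, 2070 and 2600 CPM in WT (log2 fold change -1.34, SE 0.231, adjusted p = 6e-05). MIPS2, which encodes the first enzyme of inositol synthesis, had 842, 807 and 1020 CPM in cdk8, against 2820, 2520 and 3140 CPM in WT (-1.67, SE 0.128, adjusted p = 2.2e-11). XTR6, a xyloglucan-modifying enzyme gene of the cell wall, had 163, 162 and 132 CPM in cdk8, against 823, 928 and 906 CPM in WT (-2.54, SE 0.327, adjusted p = 5.6e-07). LPAT5, a lysophosphatidyl acyltransferase gene, had 22.7, 19.9 and 24.4 CPM in cdk8, against 182, 171 and 188 CPM in WT (-3.02, SE 0.123, adjusted p = 1.9e-17). LACS9, a plastid acyl-CoA synthetase gene, had 81.3, 78.7 and 91.9 CPM in cdk8, against 227, 185 and 238 CPM in WT (-1.37, SE 0.103, adjusted p = 1.4e-11). In none of these did a cdk8 library reach the lowest WT library, which for called genes adds no further support. APX2 was the only lower gene among 18 ascorbate peroxidases, catalases and superoxide dismutases (median -0.12), a share close to the 6.0% of all genes tested.

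Of 11 genes for the path from inositol to the raffinose family of sugars, which protect membranes and proteins in stress, 5 were lower. Of all genes tested 6.0% were lower, and the list had a median of -0.70. Besides MIPS2, galactinol synthase genes GOLS2 and GOLS1, the raffinose synthase gene RS5 and the stachyose synthase gene STS fell. GOLS2 had 36.8, 43.5 and 38.0 CPM in cdk8, against 181, 204 and 193 CPM in WT (-2.29, adjusted p = 3.9e-08). GOLS1 had 5110, 4290 and 5320 CPM in cdk8, against 10400, 8880 and 10800 CPM in WT (-1.03, adjusted p = 0.00063), and it stayed inside the fold threshold with library size alone (-0.85) or without cdk8 replicates 2 and 3 (-0.97), without cdk8 replicate 2 alone (-0.94) or without WT replicate 3 (-0.97). RS5 averaged 5.01 ± 0.449 CPM in cdk8 and 18.0 ± 0.826 CPM in WT, and STS averaged 2.33 ± 0.394 CPM in cdk8 and 6.56 ± 1.25 CPM in WT (SD, n = 3 each). STS was not called without cdk8 replicates 2 and 3 (-1.79, adjusted p = 0.053).

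Genes for suberin, the lipid polymer that seals root and wound tissue, were lower in 6 of 16 cases, against 6.0% of all genes tested. The list median was -0.92. The transporter gene ABCG6 had 1.59, 1.51 and 1.82 CPM in cdk8, against 11.4, 12.4 and 13.9 CPM in WT (-2.94, SE 0.263, adjusted p = 4.9e-10). GPAT5 (-2.15), the feruloyl transferase gene ASFT (-2.02), the regulator genes MYB41 (-1.69) and MYB93 (-1.31) and the elongase gene KCS2 (-1.32) followed, all below 11 CPM. MYB41 was not called without cdk8 replicates 2 and 3 (log2 fold change -1.55). At T the same list had a median of -0.09 with 1 lower and 1 higher gene. GPAT5 and MYB41 lay under 1 CPM at T in every cdk8 and WT library. In WT at NHS, ABCG6 had 16.8, 13.8 and 12.9 CPM and ASFT had 11.8, 9.52 and 9.95 CPM, so neither stood clearly higher at P+T. MYB41 and KCS2 lay under 1 CPM in WT at NHS. Cutin and wax genes, which build the shoot surface, were lower in 3 of 24 cases, against 6.0% of all genes tested. These were CYP86A4 (-2.21), MYB30 (-1.16) and CER4 (-1.06), and the list median was -0.03. MYB30 and CER4 were not called with library size alone, nor MYB30 without WT replicate 2 (-0.99), nor CER4 without cdk8 replicate 3 (-0.88) or without replicates 2 and 3.

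Xyloglucan endotransglucosylase/hydrolase (XTH) genes, which cut and rejoin wall polymers, were lower in 6 of 21 cases (median -0.59), against 6.0% of all genes tested. The lower genes were XTR6, XTH33 (-2.48), XTH16 (-2.18), XTH18 (-1.87), XTH22 (-1.67) and XTH20 (-1.51). XTH22, a touch-induced gene, had 468, 475 and 514 CPM in cdk8, against 1170, 1660 and 1810 CPM in WT. XTH33 lay under 1 CPM in each library and was not called without cdk8 replicates 2 and 3. XTH28 (0.50, adjusted p = 0.0034) and XTH32 (0.45, adjusted p = 0.0022) passed the adjusted p alone in the higher direction.

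Of the cold and ABA response list 12 of 24 genes fell, against 6.0% of all genes tested. The list median of -1.36 was the lowest of all 28 lists. The dehydrin genes COR47, ERD10 and LTI30, whose products protect dehydrating cells, were among the 12. COR47 had 992, 992 and 1060 CPM in cdk8, against 3420, 3510 and 4190 CPM in WT (-1.87, SE 0.137, adjusted p = 8e-12). LTI30 had 20.7, 24.6 and 23.3 CPM in cdk8, against 186, 157 and 179 CPM in WT (-2.93, SE 0.231, adjusted p = 3.8e-11), and ERD10 had a value of -1.70. The ERF transcription factor gene RAP2.6 had 2.00, 2.66 and 1.30 CPM in cdk8, against 23.7, 24.5 and 27.9 CPM in WT (-3.67, SE 0.374, adjusted p = 6.6e-09). HAI2 (-3.11), HAI3 (-2.50) and HAI1 (-2.30) encode phosphatases that restrain ABA signalling, and all were lower. ADH1 (-2.01), RD29A (-1.98), RAP2.6L (-1.64), the NAC factor gene RD26 (-1.64) and KIN2 (-1.08) completed the group. NCED3, which encodes the rate-limiting enzyme of ABA synthesis, had 24.8, 19.2 and 22.4 CPM in cdk8, against 32.2, 34.3 and 32.1 CPM in WT, and its value of -0.57 (adjusted p = 0.0096) lay inside the fold threshold. RAP2.6L was not called without cdk8 replicates 2 and 3 (-1.33), and KIN2 was not called with library size alone (-0.91).

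The core of the ABA-responsive element (ABRE), ACGTG, sought on both strands of the same 300 bases, occurred in 15 of the 24 list members (62.5%), in 425 of 1250 lower genes (34%), in 113 of 314 higher genes (36%) and in 26.6% of genes tested. Windows of 5 lower members are shown with the core in capitals, because it was the motif most often matched in this list among those searched.
RAP2.6, chr1:16263711-16263740, plus: tgtccatttcccACGTGtcactatttgtat
HAI2, chr1:2282829-2282858, minus: aaatgggcacgctttgtaACGTGtaacgat
HAI3, chr2:12608628-12608657, plus: agaatgcaagtaACGTGtaatgacattatt
ADH1, chr1:28975224-28975253, plus: acgagaaatgccACGTGgacgaatactagc
RD26, chr4:13709253-13709282, minus: gccagttcatagACGTGgcagtatctaaat
The dehydration-responsive core CCGAC was found in 25% of the list, 16.8% of lower genes and 14.8% of genes tested. The W box core TTGAC, bound by WRKY factors, was found in 49.1% of lower genes and 50.2% of genes tested.

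Stress-responsive WRKY and ZAT transcription factor genes were lower in 9 of 19 cases, against 6.0% of all genes tested, with a median of -0.98. The zinc finger gene ZAT7 (-4.14), WRKY18 (-3.07), ZAT12 (-2.15), ZAT6 (-2.13), WRKY40 (-1.94), WRKY46 (-1.77), WRKY33 (-1.60), WRKY75 (-1.51) and WRKY11 (-1.49) were called. WRKY18 had 3.89, 5.43 and 3.28 CPM in cdk8, against 27.3, 38.4 and 40.2 CPM in WT. ZAT12, a regulator of the response to reactive oxygen, had 18.6, 14.5 and 16.1 CPM in cdk8, against 55.9, 93.9 and 67.9 CPM in WT (SE 0.266, adjusted p = 2.9e-07). WRKY40 and WRKY46 lost their call without cdk8 replicates 2 and 3. The list of genes for alternative respiration had 1 lower gene of 13, a share near the 6.0% of all genes tested. That gene was BCS1 (-2.51), which encodes an outer mitochondrial membrane protein. AOX1A, the alternative oxidase gene, had 41.9, 47.2 and 36.8 CPM in cdk8, against 53.1, 70.3 and 74.4 CPM in WT (-0.65, adjusted p = 0.00039).

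The hormone lists had a larger share of lower members than the 6.0% of all genes tested, with list medians of -0.12 for salicylate, -0.15 for jasmonate and ethylene and -0.24 for auxin. Of salicylate genes 3 of 12 fell, SARD1 (-2.36), the salicylate exporter gene EDS5 (-1.83) and WRKY70 (-1.53). EDS5 had 2.72, 3.89 and 3.93 CPM in cdk8, against 12.5, 14.1 and 10.8 CPM in WT. Of 22 jasmonate and ethylene genes 5 fell, ORA59 (-2.78), JAZ7 (-1.71), LOX4 (-1.48), VSP2 (-1.07) and PR4 (-1.03). In the same list the synthesis genes LOX2 (0.89, adjusted p = 0.0039), OPR3 (0.67, adjusted p = 0.034) and AOS (0.54, adjusted p = 0.016) passed the adjusted p alone with higher values in cdk8. SARD1, WRKY70, ORA59, JAZ7, LOX4, VSP2 and PR4 were not called without cdk8 replicates 2 and 3, and VSP2 and PR4 were not called with library size alone. Leaving out WT replicate 3 ended the calls of ORA59 (adjusted p = 0.056), VSP2 (-0.89) and PR4 (-0.99), leaving out cdk8 replicate 3 also that of PR4 (-0.97), and leaving out cdk8 replicate 2 also that of VSP2 (-0.97). LOX4 was not called without replicate 1 or 2 of either genotype (adjusted p = 0.055 to 0.12). Of 18 auxin genes 3 fell, GH3.3 (-2.50), which conjugates auxin to amino acids, IAA30 (-1.79) and IAA2 (-1.54). GH3.3 had 5.82, 6.82 and 5.51 CPM in cdk8, against 33.3, 33.6 and 35.7 CPM in WT. Of 16 clock genes ELF4 (-1.45) and BOA (-1.02) fell. IAA30 and BOA were not called without cdk8 replicates 2 and 3, without cdk8 replicate 3 alone (-1.53 and -0.93) or without WT replicate 2 (-1.57 and -0.97).

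Several lists had no called member, while 6.0% of all genes tested were lower and 1.51% higher. None of 32 nuclear photosynthesis genes was called, although 29 had a negative value and 6 passed the adjusted p alone, LHCB4.3 with the lowest value (-0.96). For all genes tested, 46.6% of values were negative. None of 20 cyclin, CDK and mitosis genes and none of 16 phenylpropanoid genes was called. Of 12 flavonoid genes, PAP1 alone was lower (-1.79, adjusted p = 0.046), at under 2 CPM in every library, and it was not called with library size alone, with only the groups compared, without cdk8 replicates 2 and 3, or without any single one of the P+T libraries other than WT replicate 1 (adjusted p = 0.060 to 0.27).

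**Figure D2:**
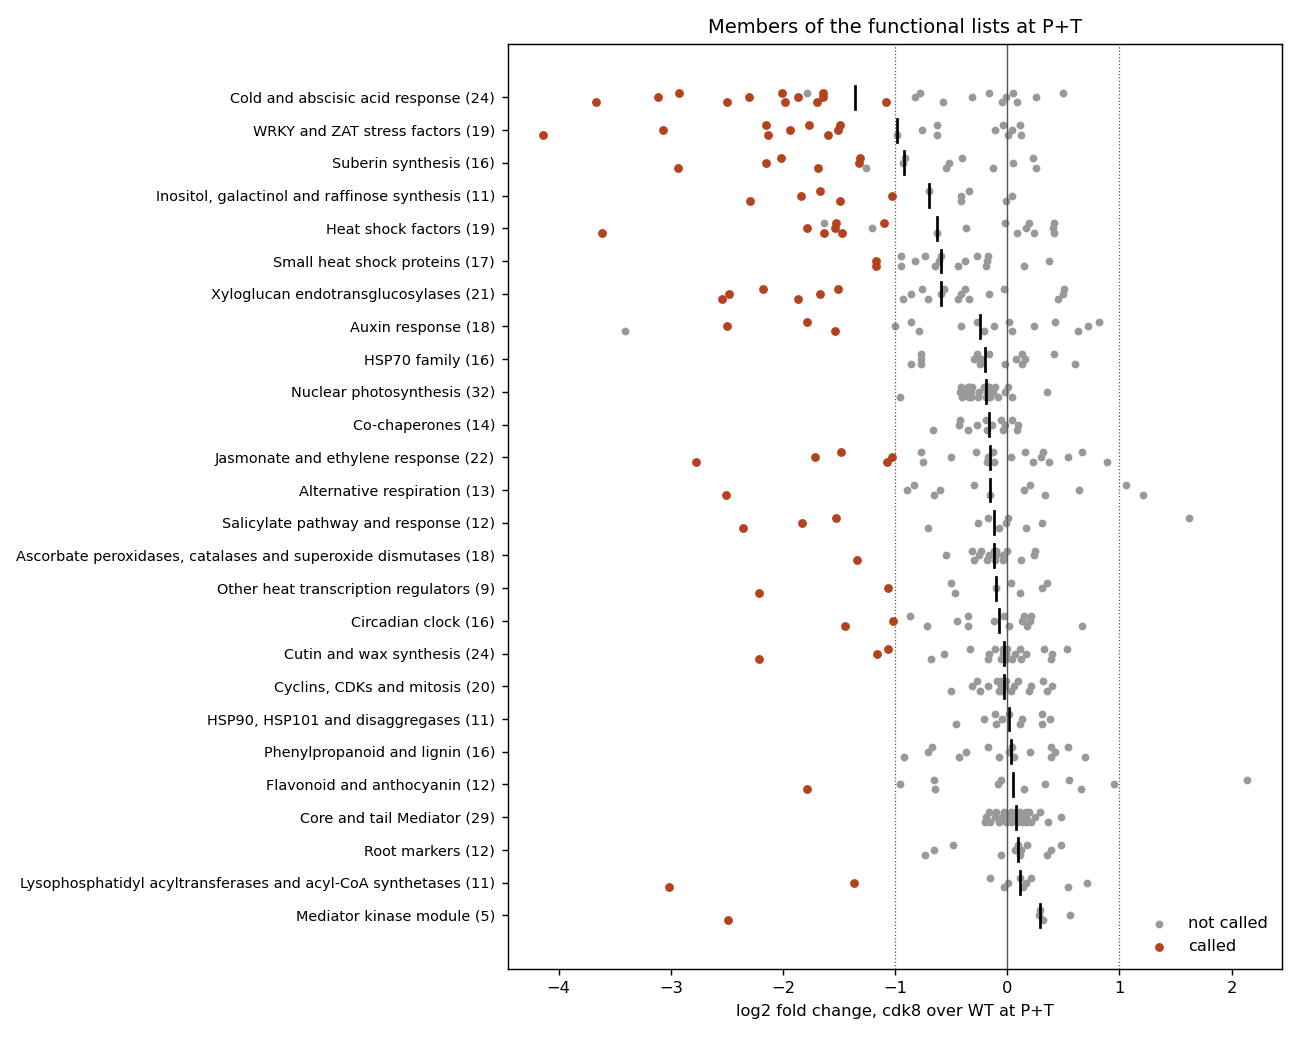
Log2 fold change (cdk8 over WT at P+T) of the members of 26 lists, with the number of members that passed the filter in brackets and the lists ordered by median. Red points were called, grey points were not, black bars are list medians and dotted lines mark -1 and 1. Called members lie left of -1, and the cold and ABA list has the lowest median, -1.36.

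Most lower genes did not belong to the second HS alone. Of the 1250, 799 (63.9%) were also lower at T, in libraries that do not enter the P+T comparison, where 5.56% of genes tested were called lower, and they made up 68.9% of the genes lower at T. A further 404 (32.3%) were called at P+T alone, 184 (14.7%) were also lower at P, where 1.40% of genes tested were, 193 (15.4%) at NHS, where 1.55% were, and 115 (9.20%) were lower under all 4 treatments. The median log2 fold change of the 1250 was -1.63 at P+T, the contrast that chose them, -1.41 at T, -0.42 at P and -0.44 at NHS. The difference between P+T and NHS, tested in itself, was called lower for 485 of the 1250 (38.8%, against 2.78% of genes tested). Of the 1250, 404 (32.3%) were higher in WT at T than in WT at NHS, against 8.68% of genes tested, and 271 (21.7%) were lower in that comparison, against 17.1%.

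Whether the genotype difference itself changed between a second and a first HS was tested as an interaction. It was called for 88 genes, in 59 of which (0.283% of genes tested) cdk8 was lower relative to WT at P+T than at T, and in 29 of which (0.139%) cdk8 stood higher relative to WT at P+T. With replicate number as a block, 82 and 46 genes were called. Of the 404 genes lower at P+T alone, 39 passed this test, so for the others a difference between P+T and T was not shown. Without the cdk8 libraries highest in seed markers, replicates 2 and 3 at both treatments, 10 and 5 genes were called, 8 and 5 of them shared with the full fit.

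Of the 59 genes, 45 were among the 1250 lower at P+T. ASFT had 2.34, 2.30 and 2.27 CPM in cdk8, against 8.39, 9.36 and 10.3 CPM in WT at P+T, and 1.83, 2.51 and 3.82 CPM in cdk8, against 0.761, 1.14 and 1.97 CPM in WT at T. The difference was -3.10 on the log2 scale (SE 0.415, adjusted p = 7.2e-05). It was -2.52 and not called without the seed-rich cdk8 libraries. LPAT5 had 6.22, 5.91 and 4.94 CPM in cdk8, against 18.1, 15.8 and 15.3 CPM in WT at T, which with the values above gave a difference of -1.49 (SE 0.172, adjusted p = 6.2e-06). LACS9 had 46.9, 51.8 and 46.2 CPM in cdk8, against 53.8, 54.7 and 60.2 CPM in WT at T, and a difference of -1.15 (adjusted p = 2.3e-05). CLE43, a signalling peptide gene, had 4.27, 4.32 and 4.91 CPM in cdk8, against 16.9, 18.8 and 19.9 CPM in WT at P+T, whereas at T the genotypes overlapped between 1.64 and 2.40 CPM. Its difference of -2.10 (adjusted p = 6.2e-06) was -2.21 without the seed-rich libraries. STS (-2.74), the transporter genes ABCG16 (-2.26) and ABCG6 (-1.98), the uncharacterized AT5G41761 (-2.26), the EF-hand gene AT2G34020 (-1.99) and AT5G05965 (-1.96) also ranked among the 8 lowest. Without the seed-rich libraries, which leaves 1 cdk8 library at each treatment, several of these differences were not called. They were those of STS (-3.08), ABCG16 (-1.69), ABCG6 (-1.635), AT5G41761 (-2.505) and AT2G34020 (-2.21), while AT5G05965 had -2.69. The difference of STS was not called without WT replicate 1 or 3 at T or without cdk8 replicate 1 at P+T (adjusted p = 0.052 to 0.067), and AT5G05965 was not called at P+T without cdk8 replicate 1 (-0.83). HSFA1E had a difference of -0.82 (adjusted p = 0.043), inside the threshold. For APX2 (-0.33, adjusted p = 0.89), MIPS2 (-0.66, adjusted p = 0.085) and XTR6 (-0.27, adjusted p = 0.95) no difference between P+T and T was shown.

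Of the 29 genes, 18 were likewise among the 1250, and in those described next, apart from AT5G52050, cdk8 lay further below WT at T than at P+T. AT4G36010, a thaumatin-like defence gene, had 24.8, 22.5 and 22.2 CPM in cdk8, against 170, 163 and 173 CPM in WT at P+T, and 6.89, 13.9 and 7.52 CPM in cdk8, against 276, 348 and 334 CPM in WT at T. The difference was 2.22 (SE 0.250, adjusted p = 4.3e-06), and 2.77 without the seed-rich libraries. ZAT6 had 24.5, 34.5 and 20.8 CPM in cdk8, against 358, 411 and 333 CPM in WT at T, and a difference of 1.66 (adjusted p = 0.0017). RAS1 (2.83), which takes its name from its response to ABA and salt, MAPKKK18 (1.92), a kinase gene of ABA signalling, the uncharacterized AT2G36220 (1.84), the RNA-binding protein gene AT5G53680 (1.70) and the ubiquitin ligase gene RHA2B (1.66) showed the same order. Without the seed-rich libraries RAS1 (3.43) kept the call of its difference. Those of ZAT6 (1.92), MAPKKK18 (1.74), AT2G36220 (1.695), AT5G53680 (1.83) and RHA2B (1.605) were then not called. RAS1 was not called at P+T without cdk8 replicates 2 and 3 (-0.73) or without replicate 2 alone (-0.98), nor RHA2B without WT replicate 3 (-0.90). The difference of MAPKKK18 (adjusted p = 0.045) was not called with library size alone (adjusted p = 0.075), with only the groups compared (adjusted p = 0.070), or in 10 of the 12 fits without 1 of the P+T or T libraries (adjusted p = 0.051 to 0.19). HSFA7A (1.40, adjusted p = 0.00015), HSFA3 (1.25, adjusted p = 0.0012), DREB2A (1.18, adjusted p = 0.0098) and NCED3 (1.22, adjusted p = 0.0033) belonged to this group too, and NCED3 passed the fold threshold at T but not at P+T. For HSFA7A, cdk8 had 310, 310 and 279 CPM at T, against 1770, 1640 and 1640 CPM in WT, and for HSFA3 cdk8 had 11.2, 11.9 and 7.40 CPM, against 74.1, 92.2 and 85.7 CPM. AT5G52050, a MATE transporter gene, had 8.47, 8.41 and 8.07 CPM in cdk8, against 4.87, 5.24 and 3.66 CPM in WT at P+T, and 4.89, 2.71 and 2.23 CPM in cdk8, against 8.84, 10.9 and 6.83 CPM in WT at T (difference 2.28, adjusted p = 0.00046). Without the seed-rich libraries the difference of AT5G52050 was 1.74 and was not called.

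**Figure D3:**
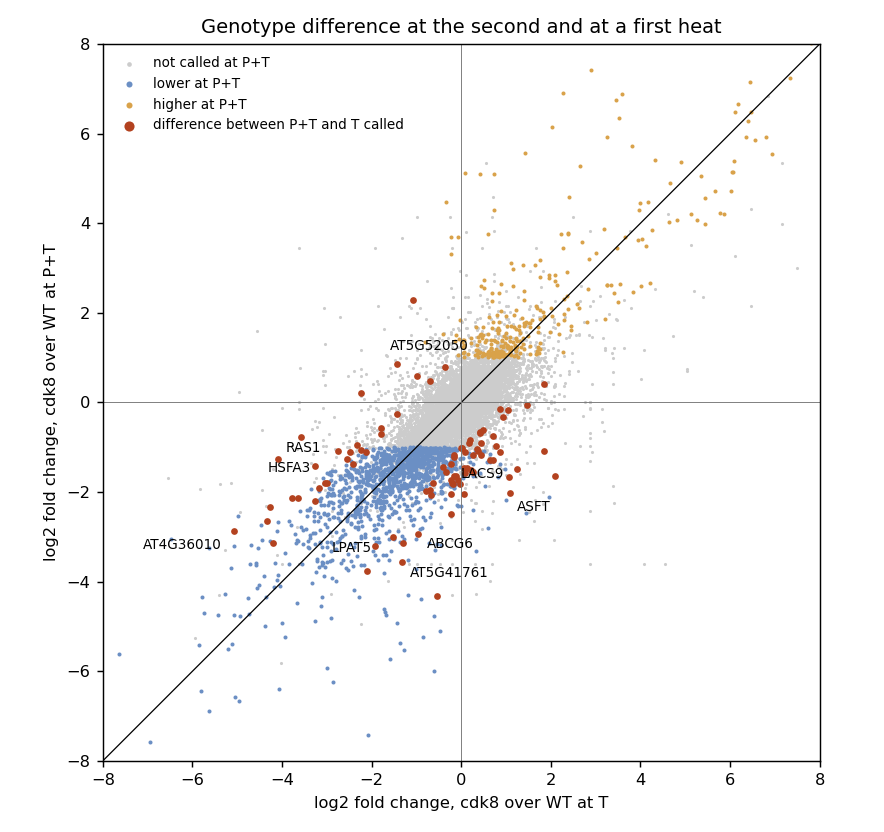
Log2 fold change (cdk8 over WT) at P+T on the vertical axis against that at T, 1 point per gene, with the line of equality. Blue and gold points were lower and higher at P+T, large red points have a called difference between the treatments, and 17 genes beyond 8 on either axis are not drawn. Most blue points follow the line, and the red points leave it on both sides, ASFT and LPAT5 below and RAS1 and AT4G36010 above.

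**Figure D4:**
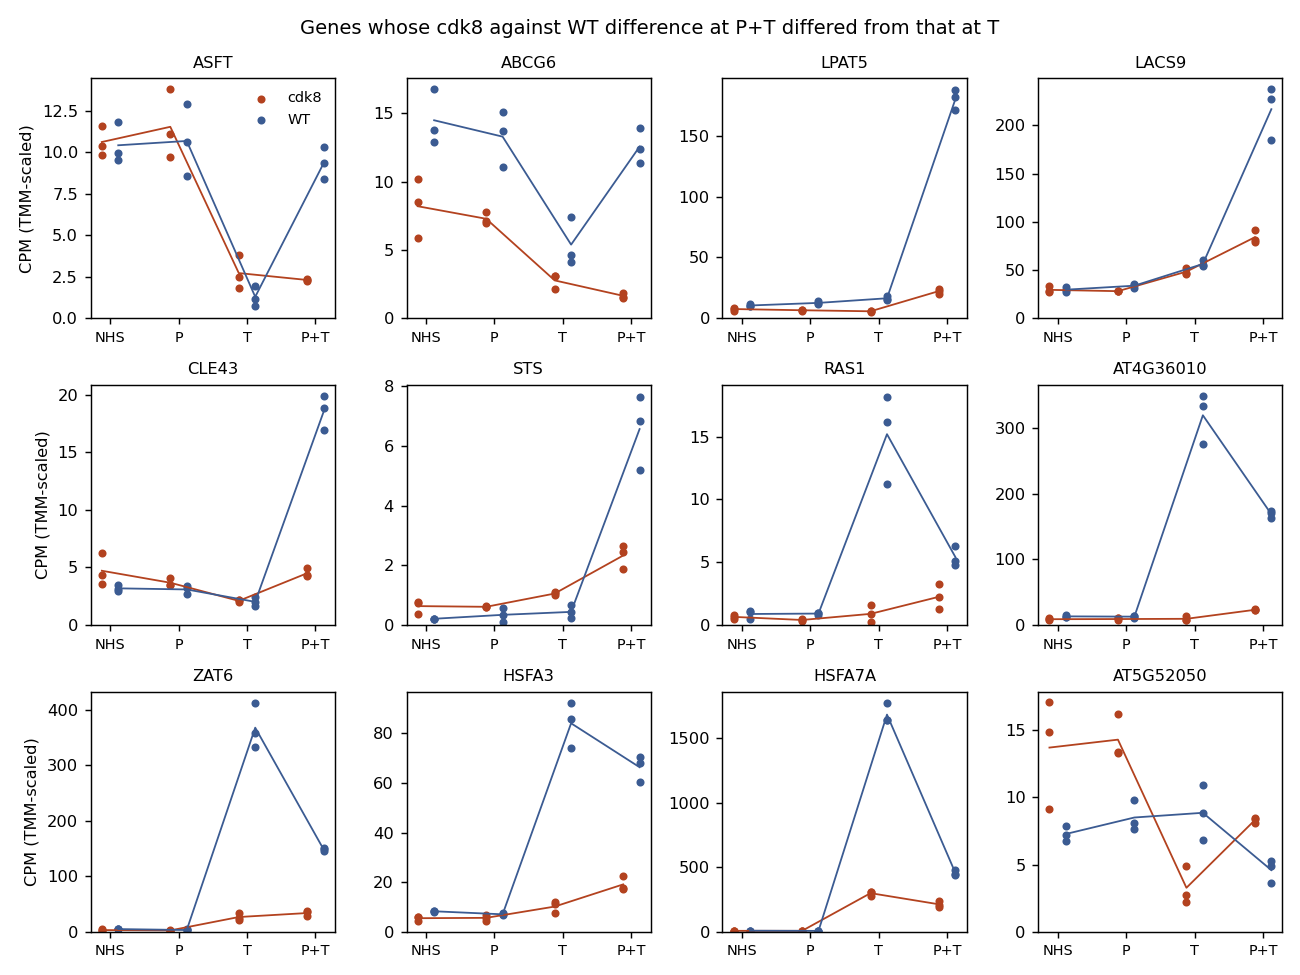
TMM-scaled CPM under the 4 treatments of 12 genes with a called difference between P+T and T, with cdk8 in red left of WT in blue. Points are libraries and lines join the means of 3. In LPAT5, LACS9, CLE43 and STS, WT stands highest at P+T, and in RAS1, AT4G36010, ZAT6, HSFA3 and HSFA7A it stands highest at T, where each cdk8 library lies below each WT library.

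Of the 115 genes lower under all treatments, 8 are described, picked from those with the highest CPM after their values were seen. The myrosinase gene TGG2, which releases toxins from glucosinolates, had 181, 137 and 165 CPM in cdk8, against 464, 411 and 359 CPM in WT at P+T (-1.35), and its log2 fold change was -1.71 at T, -1.67 at P and -1.49 at NHS. ESM1, an epithiospecifier modifier gene, had 24.5, 14.3 and 17.1 CPM in cdk8, against 81.7, 62.8 and 64.5 CPM in WT (-1.90), with -2.92 at NHS. The monooxygenase gene MO1 (-1.74), the late embryogenesis abundant gene LEA14 (-1.77), the cutinase gene CDEF1 (-2.15), the phloem protein gene PP2-A1 (-1.31) and glycine-rich protein genes AT1G67870 (-1.25) and AT2G05510 (-1.62) were further members. LEA14 was even within each genotype, with 36.8, 35.4 and 39.0 CPM in cdk8 and 126, 112 and 142 CPM in WT. For the members named in this paragraph no difference between P+T and T was called.

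Seed transcripts led the higher genes in fold. Of 13 seed storage and oleosin markers 11 were higher, with a list median of 5.86, and the 2 not called, EM1 (0.69) and EM6 (0.65), encode late embryogenesis proteins. The cruciferin gene CRC, for a main seed storage globulin, had 23.8, 432 and 1790 CPM in cdk8, against 0.252, 24.6 and 14 CPM in WT (5.86, SE 1.80, adjusted p = 0.021). The albumin gene SESA3 had 22.0, 375 and 1450 CPM in cdk8, against 0.461, 11.3 and 0.241 CPM in WT (7.24), and the oleosin gene OLEO1, whose product coats seed oil bodies, had 2.65, 91.6 and 358 CPM in cdk8, against 0.168, 3.95 and 0.914 CPM in WT (6.48). In these genes cdk8 replicate 3 was the highest and cdk8 replicate 1 the lowest of the mutant. CRC, CRA1, SESA1, SESA5, OLEO1 and OLEO2 overlapped between the genotypes, since cdk8 replicate 1 lay below at least 1 WT library. The call of CRC was lost without WT replicate 1 (adjusted p = 0.082), WT replicate 3 (adjusted p = 0.068) or cdk8 replicate 3 (4.14, adjusted p = 0.11). That of SESA1 was lost without cdk8 replicate 3 (adjusted p = 0.051), and that of SESA5 without WT replicate 1 (adjusted p = 0.064) or WT replicate 3 (adjusted p = 0.060). The albumin genes SESA1 to SESA4 are similar neighbours, and the split of reads among them is uncertain. AOP3, a glucosinolate enzyme gene, NSP2, a nitrile specifier gene, and KCS18, which elongates seed fatty acids, had no read in any WT library at P+T. In cdk8, AOP3 had 0.416, 3.53 and 5.55 CPM, NSP2 had 0.0378, 5.39 and 2.43 CPM, and KCS18 had 0.227, 1.71 and 5.55 CPM, so that replicate 1 was the lowest in each. NSP2 was not called without cdk8 replicate 2 (adjusted p = 0.062), nor KCS18 without cdk8 replicate 3 (adjusted p = 0.051). AT4G26740, which encodes peroxygenase 1, was 383 times higher (68.5 to 15200), and CRU2 (8.01), a cruciferin gene, MEE26 (7.46), AT2G27380 (7.42) and AT1G47540 (6.97) rose as well.

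Without cdk8 replicates 2 and 3, none of the 13 seed markers was called by edgeR and their median was 0.65. Of 33 higher genes taken by the naming rules, 12 kept their call and 1, SESA5, turned to a negative value (-0.47, adjusted p = 0.96), while 95 of 118 lower genes taken by those rules kept theirs. Of the 314 higher genes, 118 (37.6%) were lowest in cdk8 replicate 1 and highest in replicate 3, the order of the seed markers, against 15.4% of genes tested, and 80 (25.5%) were more than 4 times higher in replicate 3 than in replicate 1, against 1.69%. The seed markers also stood high in other cdk8 libraries, with sums of 1120, 8520 and 17700 CPM at T, 3780, 934 and 16.4 CPM at P and 861, 538 and 1120 CPM at NHS, against at most 211 CPM in any WT library. The hsfa2 libraries at P+T had 43.4 to 84.7 CPM. The part of these seed transcripts in the other differences was not tested beyond leaving out the libraries, and in whole seedlings a larger share of a tissue cannot be told apart from more RNA per cell.

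**Figure D5:**
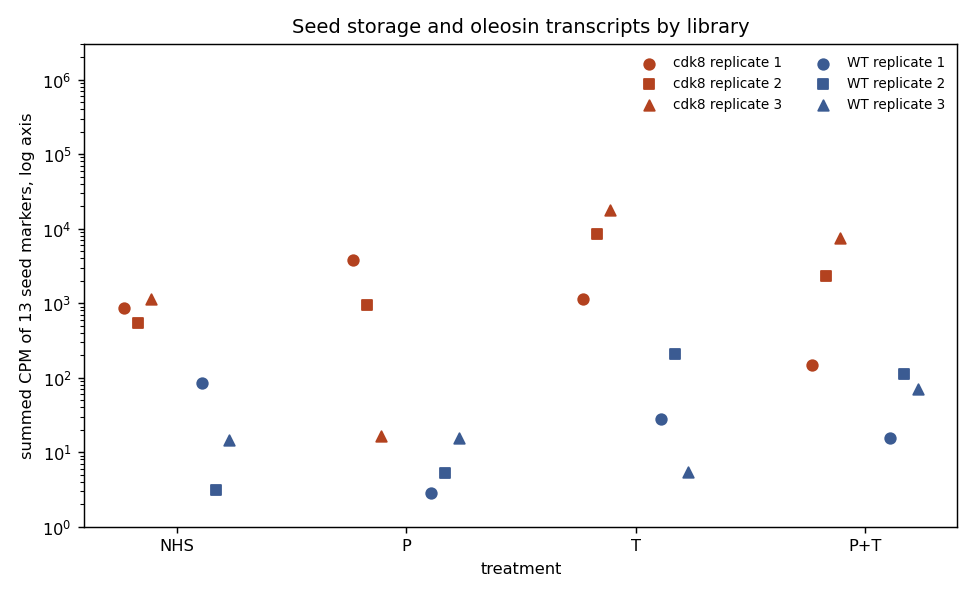
Summed TMM-scaled CPM of 13 seed storage and oleosin markers on a log axis in each library by treatment, cdk8 in red left of WT in blue, with symbols for the replicate number. At P+T the cdk8 libraries span 146 to 7520 CPM and the WT libraries 15.7 to 113 CPM, and cdk8 replicate 3 at P, with 16.4 CPM, lies just above the highest WT library of that treatment, with 15.4 CPM.

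The RY repeat CATGCATG, a seed promoter element, was found in the 300 bases before 4 of the 13 seed markers (30.8%), 15 of 314 higher genes (4.78%), 17 of 1250 lower genes (1.36%) and 0.839% of genes tested. The 4 seed markers that hold it are shown with the repeat in capitals.
SESA3, chr4:13611702-13611731, plus: acacactcatgCATGCATGcattcttacac
SESA4, chr4:13613472-13613501, plus: acacacaatcaCATGCATGcaatgtcttaa
SESA5, chr5:22239380-22239409, minus: caagtcaagagCATGCATGctgttgtagat
OLEO4, chr3:10243083-10243112, plus: tttttgtttcaCATGCATGctgtccaatct

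A second kind of higher gene was even among the cdk8 libraries. In 128 of the 314 (40.8%, against 76.3% of genes tested) the highest cdk8 library was under 1.5 times the lowest. Those with at least 1 CPM were ranked by fold, after their values were seen. AT1G73600 (chromosome 1, 27669152 to 27673572), a methyltransferase gene, had 466, 489 and 424 CPM in cdk8, against 87.9, 90.0 and 86.4 CPM in WT, and was the clearest of them. Its log2 fold change was 2.38 at P+T (SE 0.228, adjusted p = 1.8e-09), 2.37 at T, 2.17 at P and 2.39 at NHS. ECS1 had 554, 472 and 617 CPM in cdk8, against 198, 237 and 313 CPM in WT (1.13, adjusted p = 0.011), and was not called without cdk8 replicates 2 and 3 although its value there was 1.15, nor without WT replicate 1 (0.99, adjusted p = 0.062). IDD16, a zinc finger transcription factor gene, had 5.52, 5.79 and 5.47 CPM in cdk8, against 1.01, 1.72 and 1.16 CPM in WT (2.11), and AT1G11070 averaged 11.6 ± 1.96 CPM in cdk8 and 2.51 ± 0.850 CPM in WT (SD, n = 3 each). ACD6, an ankyrin protein gene that regulates cell death in defence, had 1.89, 1.71 and 1.66 CPM in cdk8, against 0.336, 0.172 and 0.289 CPM in WT (2.71). The defensin gene PDF2.1 (1.85), the RING finger genes AT5G60250 (1.90) and BRG2 (1.57) and the phloem protein gene PP2-A6 (1.68) rose as well.

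Of the 314 higher genes, 158 (50.3%) were also higher at T, where 2.1% of genes tested were, 108 (34.4%) at P, where 1.16% were, 97 (30.9%) at NHS, where 0.926% were, and 64 (20.4%) higher under all treatments. Only 1 of the 123 genes higher at P+T alone had a called difference between P+T and T in that direction. The median log2 fold change of the 314 was 1.68 at P+T, the contrast that chose them, 1.20 at T, 0.98 at P and 0.94 at NHS. The difference between P+T and NHS was called higher for 24 of the 314 (7.64%), against 0.201% of genes tested. Of the 314, 24 (7.64%) were higher in WT at T than in WT at NHS, against 8.68% of genes tested.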

How the data were processed

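The authors extracted RNA from whole seedlings, sequenced oligo-dT selected libraries in pairs on a DNBseq instrument, aligned them to TAIR10 with STAR 2.7.10a and deposited raw read pair counts per gene, 1 file per library. Only uniquely mapped pairs were counted, and the strand column is not given in the sources used here, so genes that overlap another one (18.6% of lower, 21.7% of higher and 29.6% of all tested genes) and near-identical copies are uncertain. In the 6 libraries 9.90% to 11.4% of pairs were not counted on a gene (unmapped, multimapping, no feature or ambiguous), and these rows were left out.

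All 36 libraries were fitted in 1 model of 12 groups with edgeR 4.0.16 (R 4.3.3, limma 3.58.1) and its quasi-likelihood test, after filterByExpr (minimum count 10, total 15), with TMM scaling and Benjamini-Hochberg adjustment over 20847 genes. The filter kept genes expressed in any group. The test was also run on simulated counts with a common spread per gene in all groups. That cannot show how the test behaves where the spread differs between groups. The labels call the libraries biological replicates without saying that they came from separate cultures, so p-values measure the spread between these libraries. No 2 libraries of a group agreed within sampling noise (chi-square per degree of freedom 16.0 to 32.4). Deviations of same-numbered cdk8 and WT P+T libraries from their group means had correlations of 0.378, 0.151 and 0.285 over 12931 genes. Those of differently numbered libraries lay between -0.361 and 0.165. The highest of these, cdk8 replicate 2 with WT replicate 3, exceeded the same-numbered pair of replicate 2. Same-numbered pairs had correlations of 0.352, 0.142 and 0.353 at T and of 0.285, 0.292 and 0.159 at NHS. Differently numbered pairs at T and NHS lay between -0.36 and 0.0435, below every same-numbered pair. The labels state no pairing. The main fit had no block, so its p-values ignore any pairing, and the replicate block was run as an alternative.

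The members and the 28 functional lists were chosen with earlier results of these data known. Named genes were those the paper names, the 12 lowest and 12 highest called genes with a mean of at least 1 CPM, the 6 called genes with the highest CPM in each direction, list members, and the 8 lowest and 8 highest called differences between P+T and T. Gene names, positions and upstream bases came from RefSeq TAIR10.1. Alternatives were DESeq2 1.42.0, its size factors, library size alone, no filter, a mean of at least 1 CPM, glmTreat, only the groups compared, a replicate block and leaving out each library. Leaving out the cdk8 libraries highest in seed markers was chosen after seeing the data.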

Additional observations from a re-analysis of the deposited data

Results flagged for a closer look

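The cdk8 against WT difference at P+T was set against that at T and at NHS by tests of the difference itself. It differed from T for 59 genes in the lower and 29 genes in the higher direction, and from NHS for 579 genes in the lower and 42 genes in the higher direction. Of single genes, the lowest differences between P+T and T on the log2 scale were those of ASFT (-3.10), STS (-2.74), ABCG16 (-2.26), AT5G41761 (-2.26), CLE43 (-2.10), AT2G34020 (-1.99), ABCG6 (-1.98) and AT5G05965 (-1.96). The highest were those of RAS1 (2.83), AT5G52050 (2.28), AT4G36010 (2.22), MAPKKK18 (1.92), AT2G36220 (1.84), AT5G53680 (1.70), RHA2B (1.66) and ZAT6 (1.66). Most differences in these rankings were not called without the cdk8 libraries highest in seed markers.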

How the results depend on the processing

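Counts of calls at P+T ranged from 1123 to 1217 lower and from 241 to 288 higher genes when single libraries were left out, and for the difference between P+T and T from 46 to 73 lower and from 19 to 34 higher genes. With glmTreat, which tests against a fold of 2 in place of 0 change, 475 lower and 56 higher genes remained at P+T, and 3 lower and 1 higher for the difference from T. Library size alone gave 529 higher genes at P+T, 888 at T, 19 for the difference from T and 70 for that from NHS, and moved the median of all genes to 0.20. A mean of at least 1 CPM gave 141 higher genes at P+T. The replicate block gave 46 and DESeq2 45 higher genes for the difference from T. Without the cdk8 libraries highest in seed markers, 151 genes were higher at P+T, 10 were lower and 5 higher for the difference from T, and SESA5 turned to -0.47. The block changed no other call of a named gene at P+T than that of HSFA2. Causes were not tested. Over 151 named called genes, 1996 of 2102 values outside glmTreat kept direction and call, 105 missed the threshold and 1 turned. With 3 libraries a group, genes under about 1 CPM rest on few reads.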
